A study of Mus musculus with 7 samples.

Results

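The cytokine genes examined here are Tnf, Il1a, Il1b, Il1rn, Il6, Il10, Il12a and Il12b, 8 of the 22180 genes that a single symbol identified on the arrays. They were chosen by name from the tumour necrosis factor, IL-1, IL-6, IL-10 and IL-12 families, with no filter on level, and each was read by 1 probe set of the 41345. RNA came from mouse spleen monocytes that carried wild-type EPCR (the receptor for protein C on endothelium) on 7 Affymetrix Mouse Gene 2.0 ST arrays from 2 mice. The HL7G group (2 arrays, mouse 1 and mouse 2) received a monoclonal antiphospholipid antibody at 400 ng/ml for 3 h. The R848 group (2 µg/ml, an imidazoquinoline ligand of TLR7), the CpG B group (2.5 µM, an oligodeoxynucleotide ligand of TLR9) and the poly I:C group (1 µg/ml, synthetic double-stranded RNA, a TLR3 ligand) had 1 array each, all from mouse 1, also after 3 h. The unstimulated group had 2 arrays, mouse 1 and mouse 2. All cells shared the selection step and the EPCR genotype. The sources used here do not give the strain, age or sex of the mice, the selection method or the time control cells spent in culture. The treatment protocol names an IgG condition, but none of the 7 arrays came from it. No comparison here therefore sets HL7G against a control antibody. The comparisons ask which of these cytokine transcripts the antibody raises and whether ligands of the endosomal Toll-like receptors raise the same ones.

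These cytokines are the classic early products of activated monocytes. Toll-like receptors and other sensors signal to NF-kB and MAP kinases, which switch on their transcription within hours, and AU-rich elements in many of the messages allow them to be removed quickly. TNF and IL-6 act on many cells and drive fever and the acute-phase response. IL-1α and IL-1β signal through the same receptor, which IL-1 receptor antagonist, the product of Il1rn, blocks. IL-12 is a heterodimer of the p35 chain from Il12a and the p40 chain from Il12b, and p40 is also a chain of IL-23. IL-10 restrains the production of the others.

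The sequence upstream of the genes is shown for Tnf, Il1a, Il1b and Il6, the 4 genes with the largest HL7G differences, and for Il12b as a gene with no call. Each run holds the 250 bases before the gene's start in RefSeq (GRCm38.p6), 5′ to 3′ on the strand of the gene. They lie at chr17:35202008-35202257 (minus strand), chr2:129309973-129310222 (minus), chr2:129371140-129371389 (minus), chr5:30012864-30013113 (plus) and chr11:44399813-44400062 (plus). Capitals mark the exact matches of 3 motifs searched on both strands, none of which overlapped another. They are TATAAA (a form of the TATA box), TGANTCA (the AP-1 site) and GGGRNNYYCC (the NF-kB consensus). N stands for any base, R for A or G and Y for C or T.
Tnf: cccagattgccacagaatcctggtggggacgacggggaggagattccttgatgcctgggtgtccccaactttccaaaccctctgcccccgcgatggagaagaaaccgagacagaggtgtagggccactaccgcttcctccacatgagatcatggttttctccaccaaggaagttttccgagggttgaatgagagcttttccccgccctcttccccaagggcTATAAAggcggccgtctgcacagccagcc
Il1a: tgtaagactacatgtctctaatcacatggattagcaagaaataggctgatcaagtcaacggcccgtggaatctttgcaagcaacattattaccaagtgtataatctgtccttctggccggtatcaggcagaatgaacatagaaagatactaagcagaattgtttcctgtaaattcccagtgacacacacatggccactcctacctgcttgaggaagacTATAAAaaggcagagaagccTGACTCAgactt
Il1b: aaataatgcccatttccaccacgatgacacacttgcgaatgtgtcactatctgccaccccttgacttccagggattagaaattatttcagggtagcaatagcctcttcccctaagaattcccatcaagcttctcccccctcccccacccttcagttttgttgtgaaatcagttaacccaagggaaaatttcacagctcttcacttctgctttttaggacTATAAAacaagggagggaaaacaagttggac
Il6: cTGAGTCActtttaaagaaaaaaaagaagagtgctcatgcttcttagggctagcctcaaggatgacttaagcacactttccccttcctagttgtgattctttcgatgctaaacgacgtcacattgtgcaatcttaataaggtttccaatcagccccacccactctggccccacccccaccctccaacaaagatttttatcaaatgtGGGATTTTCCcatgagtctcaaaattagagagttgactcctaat
Il12b: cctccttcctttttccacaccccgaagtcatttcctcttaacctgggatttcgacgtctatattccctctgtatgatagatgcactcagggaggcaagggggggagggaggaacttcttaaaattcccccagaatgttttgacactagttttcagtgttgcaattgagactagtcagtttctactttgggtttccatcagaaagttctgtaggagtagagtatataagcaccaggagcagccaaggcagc

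The motif TATAAA began 29 bases before the start of Tnf, 32 before that of Il1a and 31 before that of Il1b. It was present in the 250 bases of 12.4% of the 32851 promoters in the table. Il6 matched the NF-kB consensus 44 bases before its start, and 7.25% of promoters held a match. Il6 also held TGANTCA at the distal end of the window, 249 bases before its start. Il1a held TGANTCA 12 bases before its start, and 6.75% of promoters held it. The window of Il12b held no exact match to the 3 motifs, although it read tatataa near its start. Neither start of Il12a, which was called, had an exact match to these patterns. Il1rn, which was not called, held TGANTCA 141 bases before 1 of its 3 starts. Matches thus lay before Tnf, Il1a, Il1b and Il6, which were called, and before Il1rn, which was not. Any link between matches and calls was not tested. RefSeq promoters were found for 7 of the 8 genes. These matches describe the letters and do not show binding.

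The medians of the arrays ran from 4.40 to 4.54 on the log2 scale. The unstimulated array of mouse 1 read several abundant transcripts low, such as the cytoskeletal actin Actb, picked after its values were seen. Actb was at 9.34 in mouse 1 and 8.31 in mouse 2 with HL7G and between 7.77 and 8.49 with the agonists, against 5.02 in mouse 1 and 6.81 in mouse 2 without stimulation. The glycolytic gene Gapdh went the other way, at 7.75 and 8.07 with HL7G, against 9.13 and 8.75 unstimulated. The HL7G differences of the 7 tested cytokine genes are therefore also given without that array. Among 12 monocyte markers, 5 stayed under 5 on every array, including Ly6c2 and Ccr2, which define classical monocytes.

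Transcripts of 5 of the 8 cytokine genes were called higher with HL7G than without stimulation. Tnf, Il1a, Il1b, Il6 and Il12a rose, by 5.57-fold for Tnf, 4.47-fold for Il1b, 3.53-fold for Il1a, 3.07-fold for Il6 and 1.96-fold for Il12a. Il1rn and Il12b were tested and not called, and Il10 fell under the level for testing. The call used limma across 11119 genes that reached a log2 level of 5 on at least 1 array, with an adjusted p under 0.05 (Benjamini-Hochberg). In that fit 18.2% of the genes tested were called, 16.3% as higher. Il10 was below the level for testing on every array, and Il1rn and Il6 reached it only on an HL7G array. With no filter on level all 8 members were tested and the same 5 were called, against 8.32% of 22180 genes called higher. The median difference was 1.30 over the 8 members and 0.06 over all genes tested. Both HL7G arrays lay above both unstimulated arrays for 7 of the 8 members, as for 25.6% of all genes with no filter on level.

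**Figure D1:**
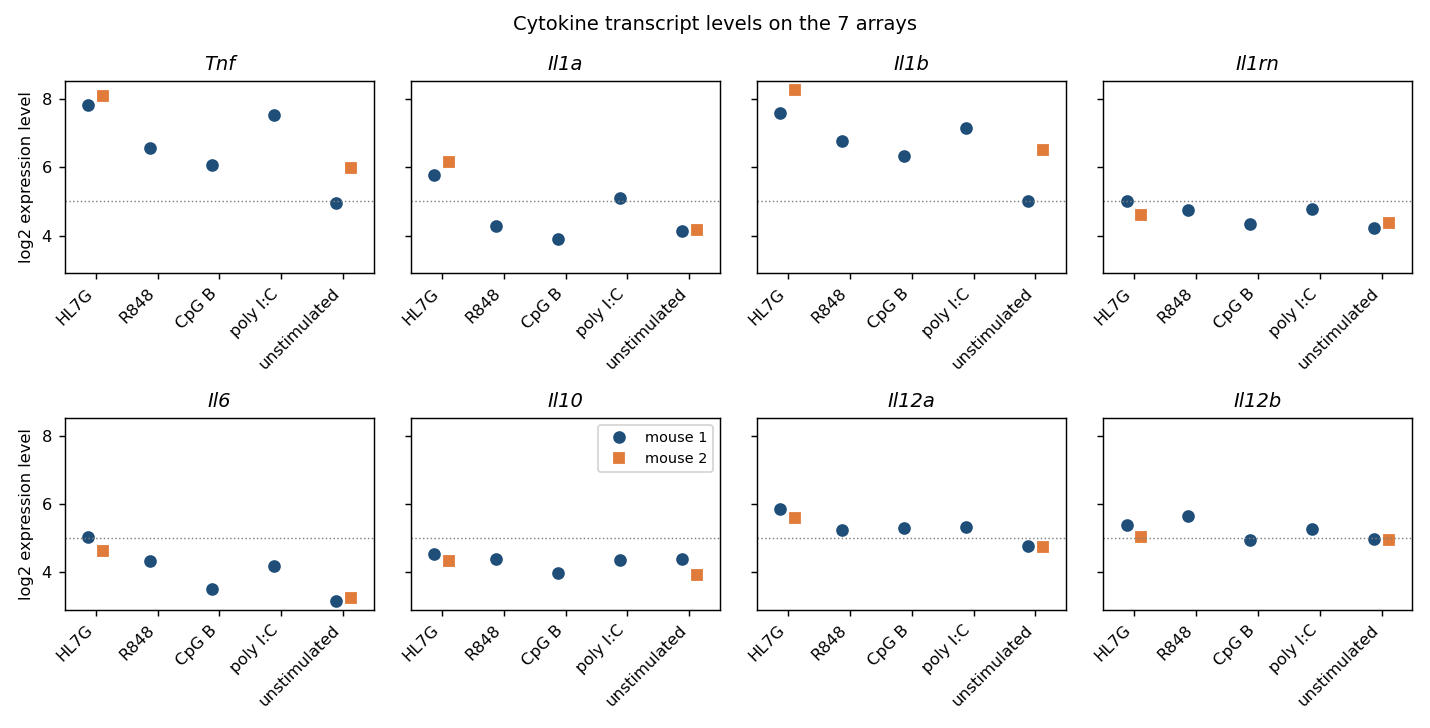
Log2 expression level of the 8 cytokine genes (vertical axis) in the 5 treatment groups (horizontal axis), with 1 point per array, circles for mouse 1 and squares for mouse 2; the dotted line is the level of 5 needed for testing. Tnf and Il1b were highest on the HL7G arrays, between 7.57 and 8.27, and Il10 stayed between 3.91 and 4.53 throughout.

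Tnf, the founding cytokine of its family, read 7.82 in mouse 1 and 8.09 in mouse 2 with HL7G, against 4.97 and 5.99 unstimulated. All HL7G values were higher, and the unstimulated arrays differed from each other by 1.02. The difference was 2.48 ± 0.35 (SE, n = 2 against 2, limma adjusted p = 0.0120). Within mice it was 2.85 in mouse 1 and 2.10 in mouse 2. Without the unstimulated array of mouse 1 it was 1.96 (adjusted p = 0.0880).

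Il1b, which encodes the secreted pyrogen IL-1β, behaved much like Tnf. It read 7.57 and 8.27 with HL7G, against 5.02 and 6.496 unstimulated. The groups did not overlap, but the unstimulated arrays stood 1.48 apart, the widest gap of the 8 members. The difference was 2.16 ± 0.48 (adjusted p = 0.0264). It was 2.55 in mouse 1 and 1.77 in mouse 2, and 1.42 without the unstimulated array of mouse 1 (adjusted p = 0.127).

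Il1a, which encodes the membrane-bound and cell-associated IL-1α, had unstimulated readings that lay close together. It read 5.77 and 6.17 with HL7G, against 4.13 and 4.16 unstimulated. Unlike for Tnf and Il1b, the unstimulated arrays differed by only 0.03. The difference was 1.82 ± 0.23 (adjusted p = 0.0120), with 1.63 in mouse 1 and 2.00 in mouse 2. Without the unstimulated array of mouse 1 it was 1.80, although the call ended there too (adjusted p = 0.0880).

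Il1rn, which encodes the natural antagonist of both IL-1 forms, read 5.01 and 4.60 with HL7G, against 4.23 and 4.38 unstimulated. The HL7G arrays were higher, by 0.78 in mouse 1 and 0.23 in mouse 2. The difference of 0.504 ± 0.24 was not called (adjusted p = 0.174, 95% interval -0.06 to 1.07). It was 0.43 without the unstimulated array of mouse 1 (adjusted p = 0.519).

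Il6, the gene of an inducer of the hepatic acute-phase response, read 5.03 and 4.63 with HL7G, against 3.16 and 3.26 unstimulated. Its unstimulated values were among the dimmest of each array, at percentiles of 6.2 (mouse 1) and 7.3 (mouse 2) over all 22180 genes. The difference was 1.62 ± 0.23 (adjusted p = 0.0120), with 1.87 in mouse 1 and 1.37 in mouse 2. Without the unstimulated array of mouse 1 it was 1.57 (adjusted p = 0.0994). With a variance trend in the fit, which lets dim genes have their own spread, the same difference had an adjusted p of 0.138.

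Il12a, the p35 chain of IL-12, read 5.86 and 5.59 with HL7G, against 4.78 and 4.73 unstimulated. The groups did not overlap, and the difference was 0.97 ± 0.22 (adjusted p = 0.0270). The call ended without the unstimulated array of mouse 1 (0.995, adjusted p = 0.163) or of mouse 2 (0.95, adjusted p = 0.129) and without the HL7G array of mouse 1 (0.84, adjusted p = 0.0667).

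Il12b, the p40 chain, read 5.38 and 5.04 with HL7G, against 4.97 and 4.94 unstimulated. The HL7G value of mouse 2 stood 0.10 above the unstimulated one of the same mouse. The difference of 0.26 ± 0.23 was not called (adjusted p = 0.433, 95% interval -0.28 to 0.79). It was 0.27 without the unstimulated array of mouse 1 (adjusted p = 0.681).

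Il10, the gene of the anti-inflammatory member, read 4.53 and 4.33 with HL7G, against 4.41 and 3.91 unstimulated. The groups overlapped. The difference was 0.27, with a standard error of 0.23 and an adjusted p of 0.451 in the fit with no filter on level.

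Ranks within each array, which do not depend on scaling between arrays, also rose with HL7G, for members called and not called. Tnf stood at the percentile 98.5 and 99.2 among all genes with HL7G, against 66.3 and 95.6 unstimulated. Il1a stood at 85.3 and 93.5 with HL7G, against 27.0 and 28.2 unstimulated. Il1b was already at 98.0 in the unstimulated array of mouse 2 and stood at 68.8 in that of mouse 1, against 98.1 and 99.3 with HL7G. Il12a moved to 86.6 and 84.5 with HL7G, against 57.0 and 55.2 unstimulated. Il12b stood at 77.3 in mouse 1 and 67.0 in mouse 2 with HL7G, against 66.4 and 65.9 unstimulated. Il1rn, which was not called, moved to 66.6 and 48.9 with HL7G, against 30.8 and 37.3 unstimulated. Il10 was at 48.5 and 38.1 with HL7G, against 38.7 and 19.5 unstimulated.

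**Figure D2:**
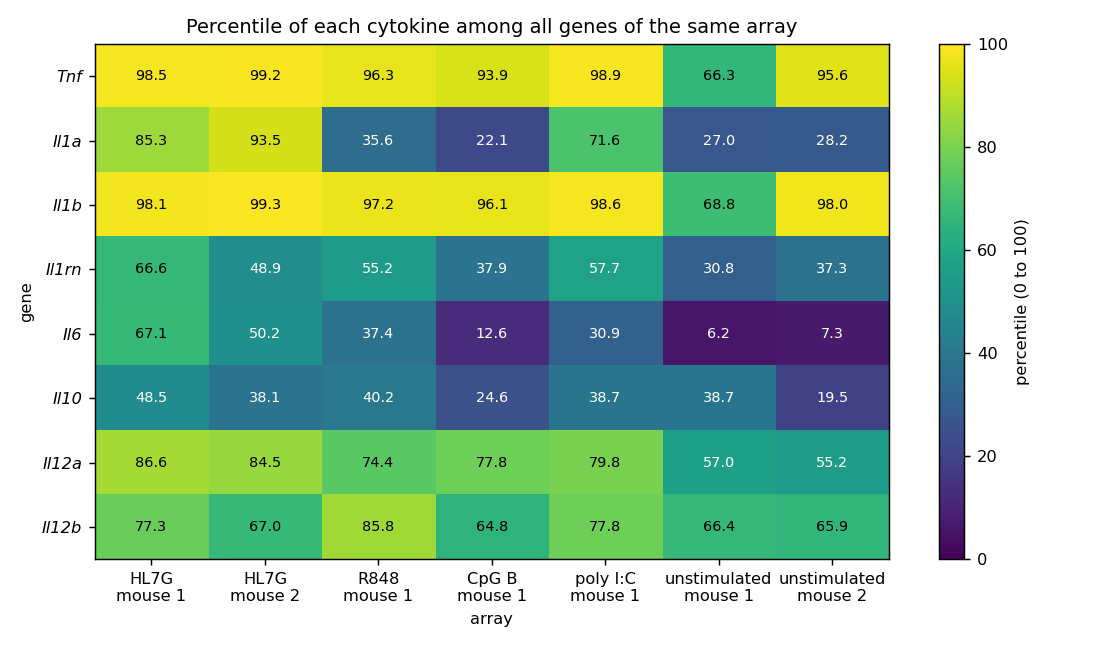
Percentile of each cytokine gene (rows) among the 22180 genes of the same array (columns), with brighter genes at higher percentiles. Il6 reached 67.1 and 50.2 on the HL7G arrays, against 6.2 and 7.3 on the unstimulated ones.

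The 3 Toll-like receptor ligands had 1 array each, and these arrays were assumed to vary like the replicated groups. No member was called with R848, CpG B or poly I:C, and limma called 0 of 11119 genes in each comparison (0%). At an unadjusted p under 0.05 these comparisons had 2550 genes with R848, 1370 with CpG B and 1054 with poly I:C, among them 3 members with R848, 0 with CpG B and 3 with poly I:C. All 4 stimuli were set against the same unstimulated arrays, so the comparisons are not independent.

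Poly I:C came nearest to HL7G for Tnf and the IL-1 genes. Tnf read 7.53 with poly I:C, 6.56 with R848 and 6.06 with CpG B, against 4.97 and 5.99 unstimulated. The CpG B array, from mouse 1, stood 1.09 above the unstimulated array of that mouse and close to that of mouse 2. The difference was 2.05 ± 0.43 with poly I:C (adjusted p = 0.429), 1.08 ± 0.43 with R848 (adjusted p = 0.202) and 0.58 ± 0.43 with CpG B (adjusted p = 0.622). These Tnf values turned on which unstimulated array was kept. Without that of mouse 1 they were 1.54 with poly I:C (adjusted p = 1.000), 0.56 with R848 and 0.0691 with CpG B. Without that of mouse 2 they were 2.57 with poly I:C, which was then called (adjusted p = 0.0448), 1.59 with R848 and 1.09 with CpG B. After cyclic loess R848 had 0.21.

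Il1b read 7.14 with poly I:C, 6.77 with R848 and 6.34 with CpG B, against 5.02 and 6.496 unstimulated, so that CpG B lay between the unstimulated arrays. Il1a read 5.09 with poly I:C, 4.28 with R848 and 3.91 with CpG B, against 4.13 and 4.16 unstimulated. R848 lay just above both unstimulated Il1a readings and CpG B below both, while poly I:C had a difference of 0.94 ± 0.29 (adjusted p = 0.458). Il1rn read 4.78 with poly I:C, 4.74 with R848 and 4.35 with CpG B, against 4.23 and 4.38 unstimulated.

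R848 gave the highest readings among the agonists for Il6 and Il12b. Il6 read 4.32 with R848, 3.50 with CpG B and 4.17 with poly I:C, against 3.16 and 3.26 unstimulated. The R848 difference for Il6 was 1.11 ± 0.29 (adjusted p = 0.103). It was called when an HL7G array was left out of the fit, with the difference itself unchanged. Leaving out either HL7G array gave the same test here, with the residual spread taken from the 2 unstimulated arrays alone. Il12b read 5.64 with R848, 4.95 with CpG B and 5.26 with poly I:C, against 4.97 and 4.94 unstimulated. It was the single member whose highest group was R848 and not HL7G. The R848 difference for Il12b was 0.69 ± 0.28 (adjusted p = 0.204).

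Il12a differed little between agonists, at 5.23 with R848, 5.29 with CpG B and 5.32 with poly I:C, all above the unstimulated 4.78 and 4.73. Its differences lay between 0.48 and 0.57, with adjusted p between 0.336 and 0.571. Il10 read 4.39 with R848, 3.99 with CpG B and 4.36 with poly I:C, against 4.41 and 3.91 unstimulated, so every agonist lay within the unstimulated range.

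**Figure D3:**
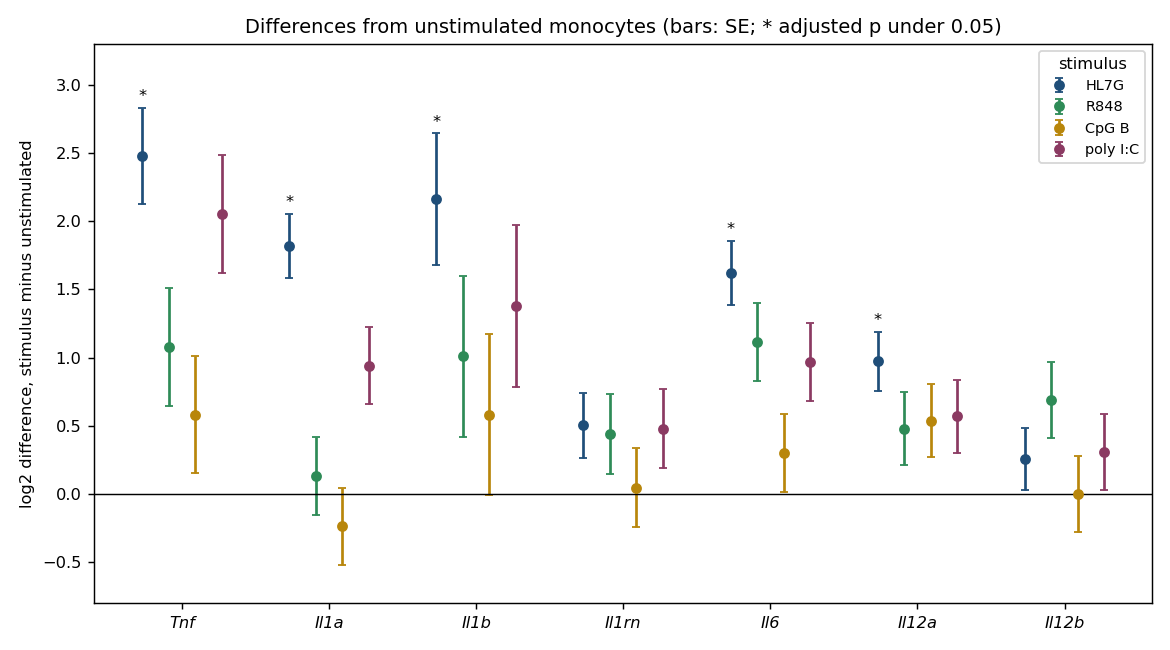
Log2 difference from unstimulated monocytes (vertical axis) for the 7 cytokine genes tested (horizontal axis) with each stimulus; points are differences of group means, bars are standard errors of the fit, and asterisks mark an adjusted p under 0.05. Tnf had 2.48 with HL7G and 2.05 with poly I:C, while Il1a had 1.82 with HL7G and -0.24 with CpG B.

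The stimuli were also set against each other in 6 pairs, which gave 42 member differences, and none was called. Limma called 0 of 11119 genes in each pair (0%), with between 118 and 899 genes at an unadjusted p under 0.05. Il1a had the largest difference of the 7 tested members in each pair that held HL7G. HL7G minus CpG B was 2.06 ± 0.29 (95% interval 1.38 to 2.73, adjusted p = 0.584). HL7G minus R848 was 1.69 ± 0.29 (1.01 to 2.36, adjusted p = 0.930), and HL7G minus poly I:C was 0.88 ± 0.29 (0.20 to 1.55, adjusted p = 0.608). The intervals are not adjusted for the number of tests. Within mouse 1, the mouse of the agonist arrays, these Il1a differences were 1.86, 1.49 and 0.68, and Il6 was further apart than Il1a for HL7G minus poly I:C, at 0.85. For Tnf the difference between HL7G and poly I:C was 0.42 ± 0.43, with an interval from -0.598 to 1.44 (adjusted p = 0.810). For Il12b the difference between HL7G and R848 was -0.43 ± 0.28, from -1.09 to 0.23 (adjusted p = 0.930). Among the agonists, Tnf had a difference of -1.47 ± 0.498 for CpG B minus poly I:C (adjusted p = 1.000).

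Leaving out arrays or rescaling moved the HL7G differences but turned none of the 7 tested. All 5 calls ended without the unstimulated array of mouse 1, in a fit with 1 residual degree of freedom. Fits without any other unstimulated or HL7G array also had 1, and some member calls remained there. Tnf ranged from 1.55 after cyclic loess to 2.99 without the unstimulated array of mouse 2, and Il1b from 1.18 to 2.90 under the same settings. Il1b lost its call after cyclic loess (adjusted p = 0.109) and after a second quantile normalization (1.52, adjusted p = 0.0797). Il1a ranged from 1.49 to 2.02 and kept its call under every rescaling.

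**Figure D4:**
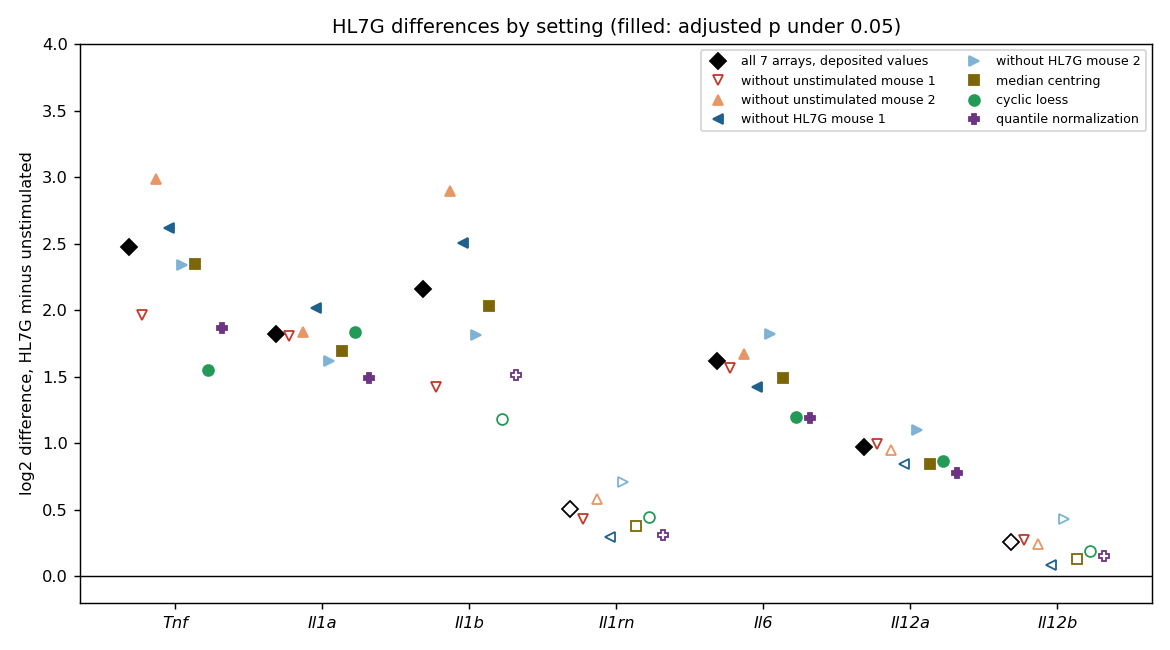
Log2 difference of HL7G minus unstimulated (vertical axis) for the 7 cytokine genes tested (horizontal axis) under 8 settings, with filled symbols for an adjusted p under 0.05. Without the unstimulated array of mouse 1 all symbols are open, and Il1a stays at 1.80 there, against 1.82 with all arrays.

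Profiles over the 7 arrays were compared by the root mean square difference between profiles centred on their own means. This measure reflects the size of the changes as well as their shape. Tnf and Il1b had the closest profiles among the strongly changing members, at 0.29, and Il1rn and Il12b, both with small changes, were at 0.17. Il1b was also the gene nearest to Tnf among all 9646 candidates, against a median candidate at 1.04, and was followed by Rpl28 (0.37), a ribosomal protein gene, and Macf1 (0.39), which links actin to microtubules. For Il1b the nearest after Tnf were AU020206 (0.31) and Tpm4 (0.32), a tropomyosin. For Il1a they were Acod1 (0.27), whose enzyme makes itaconate, Stat4 (0.29), a transcription factor downstream of IL-12, and Blk (0.32), a B cell kinase. For Il6 they were Cmip (0.12), the ribosomal protein gene Rps26 (0.13) and the proteasome subunit Psmd8 (0.14). Rpl28 read 9.92 and 9.81 with HL7G and 8.62 to 9.19 with the agonists, against 6.84 and 7.80 unstimulated, so a gene of the translation machinery had a profile close to that of Tnf. The profiles include the unstimulated array of mouse 1.

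Markers of some other cell types moved with the HL7G result, in a fit that called 16.3% of all genes tested higher. The log2 of the summed level of 9 B cell markers was 9.54 and 9.48 with HL7G and between 8.76 and 9.13 with the agonists, against 8.03 and 8.28 unstimulated, and 7 of 8 tested markers were called higher with HL7G. The 12 monocyte markers had 9.22 and 9.14 with HL7G and 8.63 to 8.94 with the agonists, against 8.49 and 8.80 unstimulated, with 2 of 7 tested called higher. The 8 T cell markers had 9.11 and 9.04 with HL7G and 8.30 to 8.42 with the agonists, against 7.89 and 8.07 unstimulated, with 3 of 6 called higher. Neutrophil markers stayed between 7.90 and 8.07 on all arrays, with 0 of 4 tested called (1 of 10 with no filter on level). Of the markers tested, 2 of 5 for conventional dendritic cells and 1 of 4 for red pulp macrophages were called higher. For plasmacytoid dendritic cells it was 0 of 4 and for NK cells 0 of 2, against the same 16.3% of all genes tested. Without the unstimulated array of mouse 1 none of these markers was called higher, in a fit that called 2 genes of 11119. The part of these shifts in the cytokine result was not tested, and in bulk RNA more cells of a type and more RNA per cell cannot be told apart.

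Of the 11 receptor genes for these cytokines, 3 were called higher with HL7G in the fit with no filter on level, where 8.32% of all genes were. With the filter 3 of 6 tested were called, against 16.3% of all genes tested. Tnfrsf1b, the second TNF receptor, read 6.97 and 6.67 with HL7G, against 4.92 and 5.48 unstimulated, and rose by 1.62 ± 0.27 (adjusted p = 0.0138). Il10ra, the ligand-binding chain for IL-10, which reached the level for testing on HL7G arrays alone, had 1.48 ± 0.295 (adjusted p = 0.0202), and Il10rb, its partner chain, named after its values were seen, had 1.00 ± 0.24 (adjusted p = 0.0318). Il6st, the gp130 signalling chain of the IL-6 receptor, had 1.13 ± 0.35 (adjusted p = 0.0646), and Il6ra, which binds IL-6, had 0.63 ± 0.27 (adjusted p = 0.147). Tnfrsf1a, Il1r1 and the decoy receptor Il1r2 stayed below a level of 5 and had 0.29, -0.36 and 0.55, not tested in the fit with the filter. The mice differed in direction for Il1r1, with 0.16 in mouse 1 and -0.88 in mouse 2. With the agonists none was called, and with HL7G the count was 0 without the unstimulated array of mouse 1.

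Genes of processing and release had 4 of 7 measured called with HL7G in the fit with no filter on level, and 3 of 5 tested with it, against the same 8.32% and 16.3%. Casp4, the inflammatory caspase that senses cytosolic lipopolysaccharide and is also called caspase-11 in mice, reached the level for testing on an HL7G array alone and had 1.55 ± 0.38 (adjusted p = 0.0347). Gsdmd, whose product forms the pores that let IL-1β out, rose by 1.07 ± 0.27 (adjusted p = 0.0380), and Adam17, the protease that sheds TNF, by 0.85 ± 0.21 (adjusted p = 0.0357). This count was 1 after median centring, and 0 without the HL7G array of mouse 1 or without either unstimulated array.

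Of 13 related cytokines measured, 8 were tested and only Ltb, which encodes lymphotoxin β of lymphocytes, was called, a share near the 16.3% of all genes tested. It read 8.04 and 7.82 with HL7G, against 5.67 and 6.45 unstimulated, and rose by 1.87 ± 0.30 (adjusted p = 0.0136), a call that ended after cyclic loess and without the unstimulated array of mouse 1. The count of related cytokines called was 3 without the HL7G array of mouse 2. Ebi3, a chain of IL-27, had 0.84 ± 0.45 (adjusted p = 0.218), with 6.24 and 4.78 with HL7G, against 4.80 and 4.55 unstimulated. Il19 had -0.64 ± 0.25 (adjusted p = 0.121), and Il23a, the partner of p40 in IL-23, read between 4.13 and 4.71 and was not tested. The list's median was -0.04 over the tested genes, against 0.06 over all genes.

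Transcription factors and brakes of cytokine genes had 8 of 12 called higher, against 16.3% of all genes tested, with a median of 1.56. Nfkbiz, a nuclear cofactor needed for Il6 transcription, rose by 2.99 ± 0.56 (adjusted p = 0.0180), the NF-kB subunit Rel by 2.80 ± 0.47 (adjusted p = 0.0139) and Irf8, a factor that acts on the Il12b promoter, by 2.17 ± 0.52 (adjusted p = 0.0317). With the agonists, Nfkbiz had 3.45 with R848, 3.68 with CpG B and 2.91 with poly I:C, none called. Within mouse 1 it stood above the unstimulated array by 3.99 with HL7G, 3.49 with R848, 3.71 with CpG B and 2.94 with poly I:C. Within mouse 2 the HL7G difference of Nfkbiz was smaller, at 1.99. Rel had 3.81 in mouse 1 and 1.79 in mouse 2 with HL7G, and Irf8 had 3.05 and 1.29. For 7 of the 8 cytokine genes CpG B was the lowest of the 4 stimuli in mouse 1. The count was 0 without the unstimulated array of mouse 1, 3 without that of mouse 2 and 4 after cyclic loess.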

How the data were processed

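Levels were measured on 7 Affymetrix arrays in 5 treatment groups, taken from the sample titles. The authors deposited log2 levels of probe sets, and the submitters' processing notes name RMA, Affymetrix Expression Console and Transcriptome Analysis Console without versions. Probe sets took their symbols from GEO's platform annotation (23521 of 41345 with a single symbol), checked against RefSeq. A gene's brightest probe set was used. limma 3.58.1 (R 4.3.3) gave 2-sided tests from 1 fit of all arrays, on genes that reached a level of 5 on any array, with 2 residual and 4.94 prior degrees of freedom. The spread comes from 2 animals, so the few arrays limit precision. The fit was run on simulated data with the same spread for all genes and no mouse effect. That run does not test the fit under the unequal spread of these arrays.

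The same mouse number marks the same animal, so the arrays are paired (r = -0.146 between the mouse differences of HL7G and unstimulated arrays over 11119 genes). The members, related lists and markers were chosen with earlier results of these data known. Besides the 8 members, up to 3 genes per list with the largest HL7G difference, a few receptors and partner chains and the 3 nearest profiles of each member with an SD of at least 0.5 were named. Alternatives covered the filter, probe sets, scaling, variance trend, the mouse as a block and each replicate left out.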

Additional observations from a re-analysis of the deposited data

How the results depend on the processing

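Of the 367 repeats of single member differences from unstimulated, 340 kept direction and side of the threshold, 10 lost a call, 3 gained one and 14 turned direction. Some repeats could not differ, so the 340 do not measure stability. Groups with 1 array add no spread, so the fit of only the unstimulated and HL7G arrays repeated the main HL7G result. Leaving out either HL7G array gave the same agonist tests, so the gain of Il6 with R848 is counted under both. Each member has 1 probe set, so the probe set settings left its difference unchanged. With HL7G, 5 members were called, 3 where the mean level had to reach 5 (4 members tested), 2 where it had to reach 6 (2 tested), and 0 to 5 with 1 array left out. Counts of members called ranged from 0 to 1 with R848 and with poly I:C when 1 array was left out, and stayed at 0 with CpG B and between stimuli. With the replicate block (mouse as a block) 5 members were called with HL7G and the pairing changed no other call of a member. Turned directions were all among uncalled differences. With CpG B, Il1rn had -0.0191 and Il12b -0.0637 after median centring, Tnf -0.0425, Il1b -0.0814 and Il12b -0.0296 after cyclic loess, Il1rn -0.23, Il6 -0.49 and Il12b -0.0472 after quantile normalization, and Il1rn -0.0211 and Il12b -0.0940 with the replicate block. With 1 array left out, the CpG B differences ran from -0.16 to 1.32 for Il1b, from -0.0278 to 0.12 for Il1rn and from -0.0157 to 0.0169 for Il12b. With R848, Il1a had -0.0966 after quantile normalization. The cause of these changes was not tested.

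Over all genes, 2024 were called with HL7G, 457 where the mean level had to reach 6, and 2 to 3295 with 1 array left out. With R848, CpG B and poly I:C these counts were 0, and 575, 120 and 11 after quantile normalization, 51, 2 and 0 after cyclic loess, 95, 2 and 2 with a variance trend, 5, 0 and 2 with the replicate block, and up to 1541, 530 and 198 with 1 array left out. The related lists, whose repeats were chosen after seeing the data, had 0 to 4 receptors, 0 to 4 processing genes, 0 to 3 related cytokines and 0 to 11 inducers and brakes called with HL7G.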
